A study of Mus musculus with 6 samples.

Results

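The genes described here are 9 nuclear receptors that are studied in macrophages (MPs) of regenerating muscle, namely Pparg, Ppard, Rxra, Rxrb, Rara, Vdr, Nr3c1, Nr4a1 and Nr4a2. They were chosen by name, and all 9 of them were found among the 13008 genes of the deposited table. RNA-seq was performed on F4/80+/Ly6C Low MPs sorted by FACS from cardiotoxin-injured limb muscles of C57BL/6J mice on day 5, in 3 Control and 3 Cripto KO samples. The labels give all mice as males of 3 months, the Control samples as wild type and the Cripto KO samples as Tg:LysMCre::Cripto-/-. The study describes the sorted cells as GFP+ and the Control mice as carrying LysMCre and the R26 mTmG reporter too, with Cre expressed from the lysozyme M locus (Lyz2), which is active in the whole myeloid lineage. The labels do not say whether a sample is 1 mouse or a pool. The comparison asks whether Ly6C Low MPs keep their expression profile without Cripto, a membrane protein that modulates TGFβ family signaling.

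Nuclear receptors are transcription factors that bind DNA through a pair of zinc fingers, and most are switched by a small lipid-soluble ligand. PPAR, RAR, LXR and the vitamin D receptor bind as heterodimers with RXR, with corepressors attached in the absence of ligand and coactivators in its presence. The glucocorticoid receptor waits in the cytoplasm in an HSP90 complex and enters the nucleus with its steroid. The NR4A receptors have no known classical ligand and are controlled by how much of them is made, as immediate-early genes. In muscle repair, PPARγ, RXR and the glucocorticoid receptor are known for their part in the turn of MPs from inflammation to repair, which involves lipid handling and the uptake of dead fibers.

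The recovered reads were 12688968 to 14141773 in Control and 14633880 to 15659847 in Cripto KO, so every Cripto KO sample was deeper than every Control sample. Values are normalized reads, that is, reads plus 0.5 scaled to 1000000 reads of a normalized library. The macrophage genes Adgre1, Cd68, Csf1r, Itgam, Fcgr1, Mertk, Mrc1 and Cx3cr1 summed to 5679 to 6215 in Control and 5521 to 6092 in Cripto KO. Of these 8, the groups did not overlap in 1, Mrc1, which encodes CD206. It had 575 to 602 in Control against 616 to 677 in Cripto KO (adjusted p = 0.64, limma). This 1 gene is 12.5% of the list, against 14.4% of all genes with reads. Muscle fiber markers (9 genes) summed to 47.0 to 97.6 in Control against 20.7 to 67.0 in Cripto KO. At an unadjusted p-value under 0.05 (limma), 7 of them were higher in Control. These 7 are 77.8% of the list, against 4.6% of all genes in this direction. The count was 1 without Control replicate 1 or without Cripto KO replicate 2 or 3. The sum of the 8 fibroblast markers was 463 to 486 against 546 to 596. At an unadjusted p-value under 0.05 (limma), 5 of them were higher in Cripto KO (3 to 5 with a sample left out). These 5 are 62.5% of the list, against 3.99% of all genes in this direction. Endothelial (7 genes; 43.8 to 51.5 and 41.6 to 49.0) and neutrophil markers (6; 7.73 to 10.8 and 9.49 to 11.5) overlapped between the groups. Of the neutrophil markers, Mmp8 made up most of the sum (331 and 407 reads in the 3 samples of each group), S100a8 had 35 and 57 reads, Camp 0 and 1, and Ngp, Retnlg and S100a9 had 0 in all samples. Of the Control samples, replicate 1 stood apart in Xist (171, against 0.114 to 0.885 elsewhere), against its label, and replicate 2 in Lyz2 (11066, against 21.2 to 28.3 elsewhere). Since the Cre of this line sits in Lyz2, the genotype of Control replicate 2 is in doubt, and with it what the Control group stands for. Whether its Lyz2 carries Cre was not tested. Without Control replicate 1 or without Control replicate 2, 0 of the 9 receptors were called, with 2 (Pparg and Rxrb) and 1 (Nr4a1) at an unadjusted p-value under 0.05. Counts with a sample left out were not set against the share of all genes in the same fit. The Cripto gene, Tdgf1, was not analysed here, and the deletion was therefore not checked in these samples. The study reports an incomplete deletion in GFP+ MPs by genomic PCR, and reduced Cripto protein in them by ELISA.

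None of the 9 receptors differed between Control and Cripto KO MPs at an adjusted p-value under 0.05 (limma), against 17 genes, or 0.131%, over the whole table. At an unadjusted p-value under 0.05 there was 1 receptor (Pparg), against 8.59% of all genes, and in 2 receptors (Pparg and Rxrb) the groups did not overlap, against 14.4% of all genes with reads. These 2 counts are 11.1% and 22.2% of the 9 receptors. Differences are given below as log2FC, that is, log2(Control/Cripto KO), with the standard error (SE), and means as mean ± SD of n = 3 samples, Control first. The median log2FC was 0.02 over the 9 receptors and 0.01 over all genes. DESeq2 and edgeR on the recovered reads also called 0 of the 9, with 0 and 1 of them at an unadjusted p-value under 0.05. For 8 receptors the 95% interval of the difference was narrow, and its widest bounds were 0.746-fold (Pparg) and 1.29-fold (Ppard). For Vdr it ran from 0.545-fold to 1.69-fold.

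In GRCm38 the genes lie at chr6:115360951-115490399 (Pparg, ENSMUSG00000000440), chr17:28232700-28301474 (Ppard, ENSMUSG00000002250), chr2:27676440-27762957 (Rxra, ENSMUSG00000015846), chr17:34031812-34038399 (Rxrb, ENSMUSG00000039656), chr11:98927818-98974942 (Rara, ENSMUSG00000037992) and chr15:101254269-101274795 (Nr4a1, ENSMUSG00000023034) on the plus strand. On the minus strand are chr2:57106830-57124003 (Nr4a2, ENSMUSG00000026826), chr15:97854425-97910630 (Vdr, ENSMUSG00000022479) and Nr3c1 (ENSMUSG00000024431).

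In level, Nr4a1 and Vdr stood far apart from the other receptors, which lay closer together. Per kilobase of exon, Nr4a1 had 216 ± 22.8 (SD over the 6 samples), which put it above 97.9% of all genes. Nr4a2 (24.7 ± 3.12), Rara (22.5 ± 1.96), Rxra (20.3 ± 1.47), Rxrb (15.2 ± 1.16) and Pparg (12 ± 1.28) followed. Ppard (6.57 ± 0.714) and Nr3c1 (6.55 ± 0.435) had lower levels per kilobase, and Vdr (0.385 ± 0.131) was above only 12% of all genes. Neighbours in this order whose sample ranges overlapped were Nr4a2 and Rara, Rara and Rxra, Rxrb and Pparg, and Ppard and Nr3c1. The ranges did not overlap between Nr4a1 and Nr4a2 (8.77-fold), Rxra and Rxrb (1.34-fold), Pparg and Ppard (1.83-fold), and Nr3c1 and Vdr (17.8-fold). The step from Rxra to Rxrb depends on the length used, since per kilobase of the longest transcript Rxrb had 23.0 and Rxra 22.7. On that scale Ppard (13.2) was also above Nr3c1 (7.82), and Rara (29.1) above Nr4a2 (28.1). The step from Pparg to Ppard was smaller on it (16.7 and 13.2), so its size depends on the length used too.

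**Figure D1:**
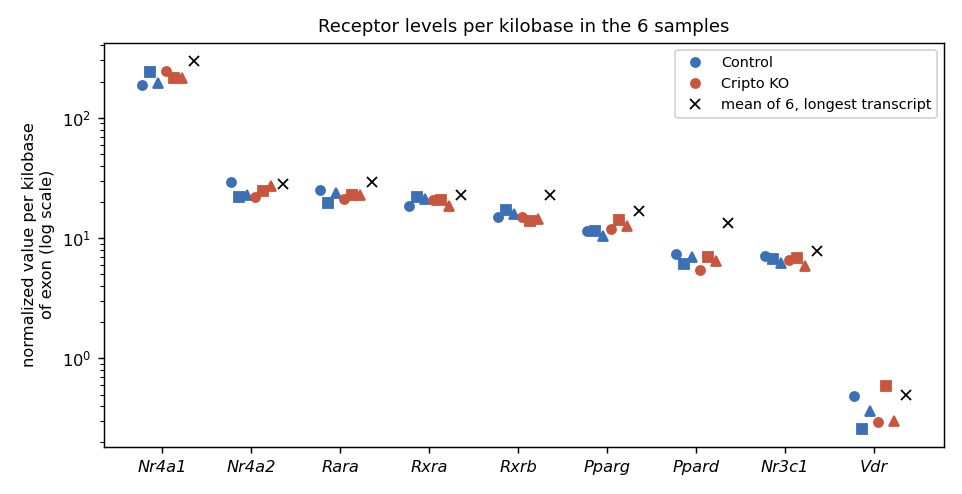
Normalized value per kilobase of exon on a log axis for the 9 receptors, with 1 point per sample (blue Control, red Cripto KO; circle, square and triangle for replicates 1, 2 and 3) and a cross for the mean of the 6 samples per kilobase of the longest transcript. Nr4a1 is at 188 to 244 in every sample, and Vdr at 0.261 to 0.595.

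Together with 18 other nuclear receptors measured here, Nr4a1 alone made up between 42.6% and 52.4% of the summed receptor level per kilobase in a sample. The 3 NR4A genes made up 54.1% to 60.4% of it, LXR (Nr1h2 and Nr1h3) 10.2% to 11.9%, RXR 7.43% to 8.49%, RAR 5.33% to 7.18%, PPAR (Pparg and Ppard) 3.69% to 4.64%, and Nr3c1 1.33% to 1.61%. The share of NR4A was 56.2% ± 3.29 in Control and 58.4% ± 1.77 in Cripto KO, a difference smaller than the SD of the Control samples. In these bulk samples, fewer expressing cells and less RNA per cell cannot be told apart. The study digested the muscles with enzymes before sorting. Whether this step changed the level of NR4A or of other immediate-early genes was not tested.

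Since NR4A made up the largest share, the stretch before the start of its 2 genes in the list is shown first. Each is the 250 bases that precede the RefSeq start (GRCm38.p6), written 5′ to 3′ on the gene's strand, with each TGACG or CGTCA in capitals, which are the 2 strands of the core of a cAMP response element (CRE). The stretch of Nr4a1 (chr15:101266596-101266845, plus strand) lies in an intron of the longer Nr4a1 transcripts of GENCODE, and that of Nr4a2 (chr2:57124004-57124253, minus strand) lies in no annotated gene.
Nr4a1: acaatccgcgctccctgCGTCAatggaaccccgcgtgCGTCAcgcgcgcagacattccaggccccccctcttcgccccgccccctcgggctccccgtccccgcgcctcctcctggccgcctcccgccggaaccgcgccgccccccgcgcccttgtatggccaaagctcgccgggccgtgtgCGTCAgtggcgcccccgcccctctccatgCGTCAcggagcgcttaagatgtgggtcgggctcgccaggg
Nr4a2: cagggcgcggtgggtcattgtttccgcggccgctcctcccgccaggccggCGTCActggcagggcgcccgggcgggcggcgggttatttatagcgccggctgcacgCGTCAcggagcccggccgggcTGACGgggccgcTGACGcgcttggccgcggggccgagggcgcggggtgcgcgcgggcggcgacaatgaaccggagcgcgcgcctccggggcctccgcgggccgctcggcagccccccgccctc

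Both stretches hold 4 copies of this core, at 40 to 233 bases before the start in Nr4a1 and 111 to 200 bases in Nr4a2. Of all 32851 stretches of 250 bases before RefSeq starts, 17.8% hold at least 1 copy on either strand and 0.137% hold 4 or more. The stretches of Nr4a1 and Nr4a2 have a GC content of 74.4% and 80%, and the shares over all starts are not matched for it. The table matched 8 of the 9 receptors with 15 starts, and among the other 13 starts only 1 of Rxrb and 1 of Rara hold a copy, 1 each. Nr4a3 also holds 4 copies, and 55.6% of 18 starts of the immediate-early genes listed here hold at least 1. AGGTCA or TGACCT, the hexamer that most nuclear receptors read, occurs before 2 starts of Pparg and 1 of Rxra, or 20% of the 15 starts, against 14% of all. A match of letters is a description and not a binding site.

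Nr4a1 (Nur77), with the highest level per kilobase, restrains inflammatory genes and is needed for Ly6C Low monocytes. Its normalized value was 659, 846 and 689 in Control replicates 1, 2 and 3 and 855, 751 and 746 in Cripto KO replicates 1, 2 and 3. The highest samples were 1 of each group, and the groups overlapped. Its log2FC was -0.11 (SE 0.10, adjusted p = 0.815, limma), and -0.22 without Control replicate 2 (adjusted p = 0.604, limma) and -0.04 without Control replicate 1 (adjusted p = 0.934, limma).

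Nr4a2 (Nurr1) binds the same response element and has been tied to alternative activation of MPs. It had 119.7, 89.3 and 92.3 in the Control samples against 88.9, 100.0 and 110.7 in those of Cripto KO, with the highest value in Control replicate 1 and the lowest in Cripto KO replicate 1. The group means were almost equal (100.5 ± 16.8 and 99.9 ± 10.9). Its log2FC of 0.00 (SE 0.12, adjusted p = 0.998, limma) has a 95% interval of -0.28 to 0.28. The sign was negative with quantile normalization, voom weights, edgeR and DESeq2. Nr4a1 was lowest and Nr4a2 highest in Control replicate 1, and the reverse was seen in Cripto KO replicate 1. Their ratio per kilobase went from 6.37 in Control replicate 1 to 11.1 in Cripto KO replicate 1.

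The third gene of the family, Nr4a3, was 123.9 ± 8.06 in Control against 105.2 ± 17.8 in Cripto KO, with overlapping groups (log2FC 0.25, adjusted p = 0.60, limma). Among 18 immediate-early genes, 0 had an adjusted p-value under 0.05 (limma), and 3 had an unadjusted p-value under 0.05, namely Atf3 (log2FC 0.24) and Klf6 (0.25), higher in Control, against 4.6% of all genes in this direction, and Btg2 (-0.25), higher in Cripto KO, against 3.99%. Their median was 0.02. In this and the following lists, the 3 genes with the highest normalized value are also given, without scaling for length. Here they were Junb (4028 ± 139 and 4212 ± 29.0), Jund (2069 ± 192 and 1947 ± 87.3) and Fos (1571 ± 69.6 and 1624 ± 171), the subunits of AP-1. Without Control replicate 1 there were 5 genes at an unadjusted p-value under 0.05, with Dusp2 and Egr1 added, which were named after their values had been seen. These 5 were not set against the share of all genes in that fit.

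**Figure D2:**
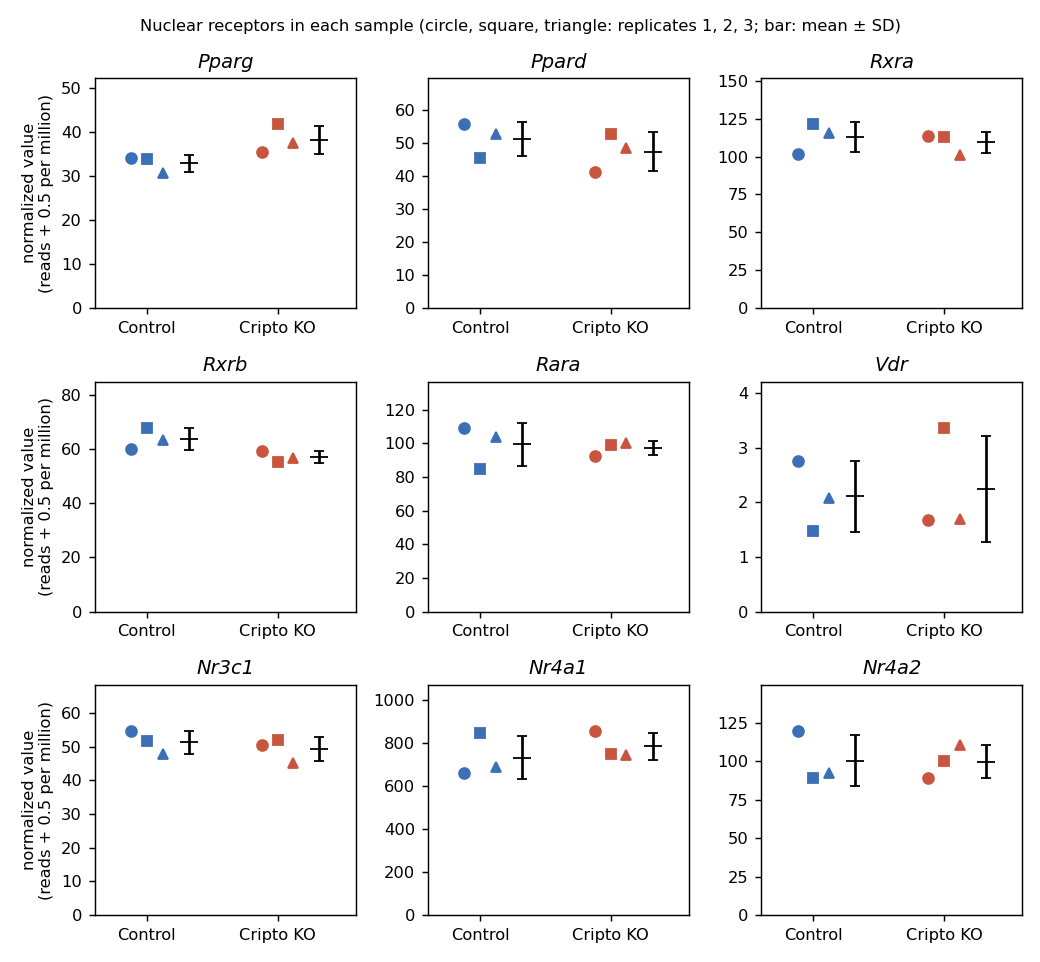
Normalized value (reads plus 0.5, scaled to 1000000) of each receptor in each of the 6 samples, with the mean ± SD of each group of 3 beside the points and axes that start at 0. Pparg is higher in the 3 Cripto KO samples (35.5 to 41.7) than in the 3 Control samples (30.6 to 34.1), Rxrb is lower (55.2 to 59.3 against 60.0 to 67.9), and the groups of the other 7 receptors overlap.

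Pparg encodes PPARγ, the receptor for oxidized fatty acids that drives lipid uptake in MPs and, in muscle, a set of repair factors. It had 34.1, 33.9 and 30.6 in the Control samples against 35.5, 41.7 and 37.5 in those of Cripto KO, from 375 to 463 and 544 to 589 reads. All 3 Cripto KO samples were above all 3 Control samples. The means were 32.9 ± 1.94 and 38.2 ± 3.19. The log2FC was -0.22 (SE 0.09, 95% interval -0.42 to -0.01), with an unadjusted p-value of 0.0424 and an adjusted p-value of 0.559 (limma). The sign was negative in all 13 alternatives, with adjusted p-values from 0.465 to 0.901 (limma, edgeR or DESeq2), and 7 of them had an unadjusted p-value under 0.05. It was -0.17 without Control replicate 3 and -0.15 without Cripto KO replicate 2, with unadjusted p-values of 0.147 and 0.162. The sum of the fibroblast markers, mostly Col1a1, Col1a2 and Col3a1, did not overlap between the groups either and was also higher in Cripto KO. The part of these markers in the difference of Pparg, or of the target genes Lpl and Angptl4 below, was not tested.

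Ppard encodes PPARδ, which senses fatty acids in most cells and favors their oxidation. Its values were 55.6, 45.5 and 52.7 in the Control samples against 41.2, 52.7 and 48.4 in those of Cripto KO. The groups overlapped (log2FC 0.12, SE 0.11, adjusted p = 0.809, limma). The ratio of Pparg to Ppard per kilobase was 1.56, 1.89 and 1.48 in the Control samples against 2.19, 2.01 and 1.98 in those of Cripto KO, so that the 2 groups did not overlap. Its means were 1.64 ± 0.219 and 2.06 ± 0.115, and its size depends on the length used for each gene. This ratio was looked at after the values of both genes had been seen, and 3 samples against 3 cannot give an exact permutation p under 0.1.

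Of 17 PPAR target genes measured, 0 had an adjusted p-value under 0.05 (limma). At an unadjusted p-value under 0.05 there were 2, Lpl and Angptl4, both higher in Cripto KO, or 11.8% of the list. Of all genes, 3.99% were in this direction at that p-value, and 8.59% in either direction. The median log2FC of the list was -0.05. Lpl, the lipase that frees fatty acids from lipoproteins, was 456, 635 and 693 in the Control samples against 849, 844 and 871 in those of Cripto KO. The Cripto KO samples lay close together above the more scattered Control samples, of which replicate 1 was lowest. The log2FC was -0.55 (SE 0.14, adjusted p = 0.376, limma) and -0.37 without Control replicate 1 (adjusted p = 0.111, limma), and the gene passed with DESeq2 (adjusted p = 0.00538). Adjusted p-values of Lpl over all alternatives ran from 0.00538 to 0.833 (limma, edgeR or DESeq2). Angptl4, an inhibitor of that lipase, was 15.9, 16.7 and 14.2 in the Control samples against 32.6, 21 and 17.4 in those of Cripto KO (log2FC -0.55, adjusted p = 0.521, limma). The value rested in part on Cripto KO replicate 1, without which it was -0.30. The targets with the highest values were Gdf15 (1809 ± 71.3 and 1885 ± 127), Plin2, which coats lipid droplets (1687 ± 85.3 and 1742 ± 135), and Ucp2 (1173 ± 77.0 and 1106 ± 117), and in each of them the groups overlapped.

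Rxra encodes the main RXR of myeloid cells, the partner of PPAR, LXR, RAR and the vitamin D receptor. It had 101.7, 121.2 and 115.8 in the Control samples against 113.8, 113.1 and 101.1 in those of Cripto KO. These groups overlapped almost fully (log2FC 0.04, SE 0.09, adjusted p = 0.915, limma), and the sign was negative with quantile normalization.

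Rxrb encodes a second RXR with the same partners. It had 60.0, 67.9 and 63.4 in the Control samples against 59.3, 55.2 and 56.9 in those of Cripto KO. Every Control sample was above every Cripto KO sample. The log2FC was 0.16 (SE 0.07, 95% interval -0.01 to 0.33, unadjusted p-value 0.0643, adjusted p = 0.62, limma). It was positive in all 13 alternatives, with adjusted p-values from 0.428 to 1.00 (limma, edgeR or DESeq2), and 1 of these, that without Control replicate 1, had an unadjusted p-value of 0.0307.

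The partners LXRβ (Nr1h2) and LXRα (Nr1h3) sense oxysterols. Nr1h2 had 91.5 ± 8.65 and 95.5 ± 2.30, with a log2FC of -0.07 (adjusted p = 0.854, limma), and Nr1h3 had a log2FC of 0.18 (adjusted p = 0.699, limma). Of 14 LXR:RXR target genes measured, 0 had an adjusted p-value under 0.05 (limma) and 0 an unadjusted p-value under 0.05, with a median of 0.04. Without Control replicate 1 there were 4 at an unadjusted p-value under 0.05 (Abcg1, Apoc2, Mertk and Mylip, named after their values had been seen), all higher in Control, and the median was 0.14. This count was not set against the share of all genes in the same fit, so it is not read as a result about the list. Apoe, the apolipoprotein of cholesterol export, had the highest value in the list (45648 ± 1766 and 45506 ± 3219), followed by Pltp (2505 ± 49.0 and 2382 ± 197) and Abca1 (604 ± 47.1 and 543 ± 97.7). The log2FC values of these 3 genes were 0.01, 0.08 and 0.17.

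Rara encodes the retinoic acid receptor of myeloid cells. Its values were 109.4, 85.1 and 103.9 in the Control samples against 92.5, 99.4 and 100.1 in those of Cripto KO. Control held both the highest and the lowest sample (log2FC 0.02, SE 0.10, adjusted p = 0.964, limma; the sign was negative with quantile normalization). Its relative Rarg was at a lower level, and the ratio of Rara to Rarg per kilobase was 3.36 to 3.83 over the 6 samples. Of 13 listed genes of retinoid handling, 7 were measured, and 0 had an adjusted p-value under 0.05 (limma). Tgm2, a transglutaminase induced by retinoic acid, was 689, 486 and 579 in the Control samples against 423, 462 and 522 in those of Cripto KO, and the groups overlapped. It was the 1 gene of the list with an unadjusted p-value under 0.05 (log2FC 0.31, adjusted p = 0.543, limma). That is 14.3% of the 7, against 8.59% of all genes. Without Control replicate 1 the list had 0 such genes. Dhrs3, which turns retinal back to retinol, was almost level (330.4 ± 10.6 and 325.1 ± 4.75), as was Rdh10, which makes retinal (6.63 ± 0.307 and 6.52 ± 0.487).

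Vdr encodes the vitamin D receptor, and was the one member near the low end. It had 2.76, 1.48 and 2.08 in the Control samples against 1.68, 3.36 and 1.69 in those of Cripto KO, from 19 to 47 reads per sample. The highest and the lowest sample differed 2.28-fold, and the groups overlapped (log2FC -0.06, SE 0.36, adjusted p = 0.975, limma; positive with quantile normalization). Its 95% interval, -0.88 to 0.76, was the widest of the 9. Of 7 listed vitamin D genes, 3 were measured. Pdia3, a chaperone of glycoproteins that has also been described as a membrane binder of vitamin D, had an unadjusted p-value of 0.0355 (673 ± 69.1 and 580 ± 23.7; log2FC 0.21, adjusted p = 0.537, limma). The hydroxylases Cyp27a1 (log2FC 0.03, adjusted p = 0.933, limma) and Cyp2r1 (0.68, adjusted p = 0.722, limma) had overlapping groups, and Cyp2r1 was near 1 in level.

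Nr3c1 encodes the glucocorticoid receptor, which mediates the anti-inflammatory action of corticosterone. It had 54.7, 51.6 and 47.9 in the Control samples against 50.6, 52.1 and 45.2 in those of Cripto KO. Its log2 values varied least of the 9 receptors (SD 0.10 over the 6 samples), and the groups overlapped (log2FC 0.06, SE 0.09, adjusted p = 0.88, limma).

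Of 16 glucocorticoid receptor target genes measured, 0 had an adjusted p-value under 0.05 (limma), and 3 had an unadjusted p-value under 0.05, namely Fkbp5 in one direction and Mt1 and Mt2 in the other. These 3 are 18.8% of the list, against 8.59% of all genes. The median log2FC was 0.04. Fkbp5, which feeds back on the receptor as its cochaperone, was 14.4, 14.4 and 16.7 in the Control samples against 11.8, 10.9 and 12.2 in those of Cripto KO. The groups did not overlap (log2FC 0.38, adjusted p = 0.453, limma). The metallothioneins Mt1 (149.8 ± 15.2 and 182.0 ± 12.5) and Mt2 (18.2 ± 3.04 and 25.4 ± 2.43), which glucocorticoids and metals induce, went the other way, without overlap between the groups (log2FC -0.28 and -0.50, adjusted p = 0.45 and 0.415, limma). The highest values were those of Zfp36 (2567 ± 41.7 and 2422 ± 71.0, without overlap), Dusp1 (1935 ± 163 and 1899 ± 45.8) and Nfkbia (746 ± 87.2 and 771 ± 70.6), all inhibitors of inflammatory signaling, with log2FC values of 0.08, 0.02 and -0.05.

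Of 9 measured chaperones and ligand enzymes of steroid receptors, 4 had an unadjusted p-value under 0.05 (limma). That is 44.4% of the list, against 8.59% of all genes. The 4 were Hsp90aa1 and Dnaja1, higher in Cripto KO, and Fkbp5 and Bag1, higher in Control. In this list 0 of the 9 had an adjusted p-value under 0.05 (limma). Hsp90aa1, the stress-induced HSP90, was 1012, 1028 and 778 in the Control samples against 1405, 1398 and 1360 in those of Cripto KO. All Cripto KO samples were above all Control samples (log2FC -0.57, SE 0.11, adjusted p = 0.156, limma), and the gene passed with DESeq2 (adjusted p = 2.80e-05), with adjusted p-values up to 0.518 over the alternatives. Dnaja1, an HSP40 cochaperone, was 296 ± 24.2 in Control against 381 ± 30.7 in Cripto KO (log2FC -0.36, adjusted p = 0.329, limma), and passed with DESeq2 (adjusted p = 0.0221; 0.0221 to 0.833 over the alternatives). Bag1 had 151.9 ± 8.64 and 135.6 ± 5.44 (log2FC 0.16, adjusted p = 0.559, limma). The constitutive Hsp90ab1 (1829 ± 81.6 and 2060 ± 127) and Hspa8 (4848 ± 183 and 4796 ± 330) had log2FC values of -0.17 and 0.02 (adjusted p = 0.625 and 0.974, limma).

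**Figure D3:**
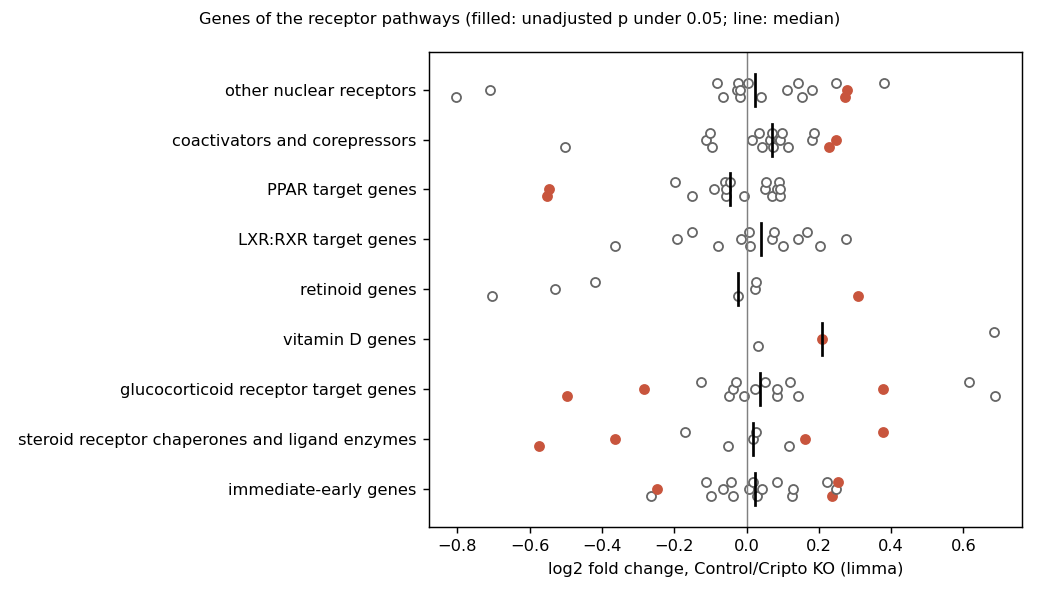
Log2FC (Control/Cripto KO) of each measured gene in 9 lists of receptor relatives, cofactors, targets and partners, with a filled point where the unadjusted p-value was under 0.05 and a line at the median of the list. The medians lie between -0.05 (PPAR target genes) and 0.21 (vitamin D genes, 3 genes), and Hsp90aa1, Angptl4 and Lpl are the filled points furthest to the left.

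Coactivators and corepressors, which the receptors share, were measured for 17 of 18 listed genes. None had an adjusted p-value under 0.05 (limma; 0 also with edgeR and DESeq2), and 2 had an unadjusted p-value under 0.05, both higher in Control. These 2 are 11.8% of the list, against 4.6% of all genes in this direction and 8.59% in either direction. Ncor1, a corepressor of unliganded RAR, PPAR and LXR, was 63.3, 63.7 and 63.0 in the Control samples against 55.0, 49.9 and 55.0 in those of Cripto KO. Its Control values were within 1 unit of each other and above all Cripto KO values (log2FC 0.25, SE 0.07, adjusted p = 0.42, limma), and all 13 alternatives had an unadjusted p-value under 0.05. Ncoa1, a coactivator of the p160 family, had 26.5 ± 0.47 and 22.6 ± 1.44 (log2FC 0.23, adjusted p = 0.529, limma). High values in this list were those of Ncoa4 (207 ± 37.3 and 181 ± 13.7), known as the carrier of ferritin to lysosomes, and Ncoa3 (124.0 ± 1.69 and 115.8 ± 3.05, without overlap), with log2FC values of 0.18 and 0.10.

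Among the 18 other nuclear receptors measured of 39 listed, 0 had an adjusted p-value under 0.05 (limma). The 2 at an unadjusted p-value under 0.05 were Nr1d1 and Nr1d2, the heme-binding repressors of the circadian clock. Both were higher in Control and made up 11.1% of the list, against 4.6% of all genes in this direction and 8.59% in either direction. Nr1d1 was 77.5, 60.4 and 67.0 in the Control samples against 50.1, 59.6 and 59.5 in those of Cripto KO, and the closest pair differed by less than 1 unit. The log2FC values were 0.27 and 0.28 (adjusted p = 0.536 and 0.537, limma). Each was at an unadjusted p-value under 0.05 in 8 of 13 alternatives. Those that lost it were quantile normalization, the replicate block, and the fits without Control replicate 1, Control replicate 3 or Cripto KO replicate 1. Both kept their sign throughout (log2FC 0.18 to 0.36 for Nr1d1 and 0.18 to 0.37 for Nr1d2).

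**Figure D4:**
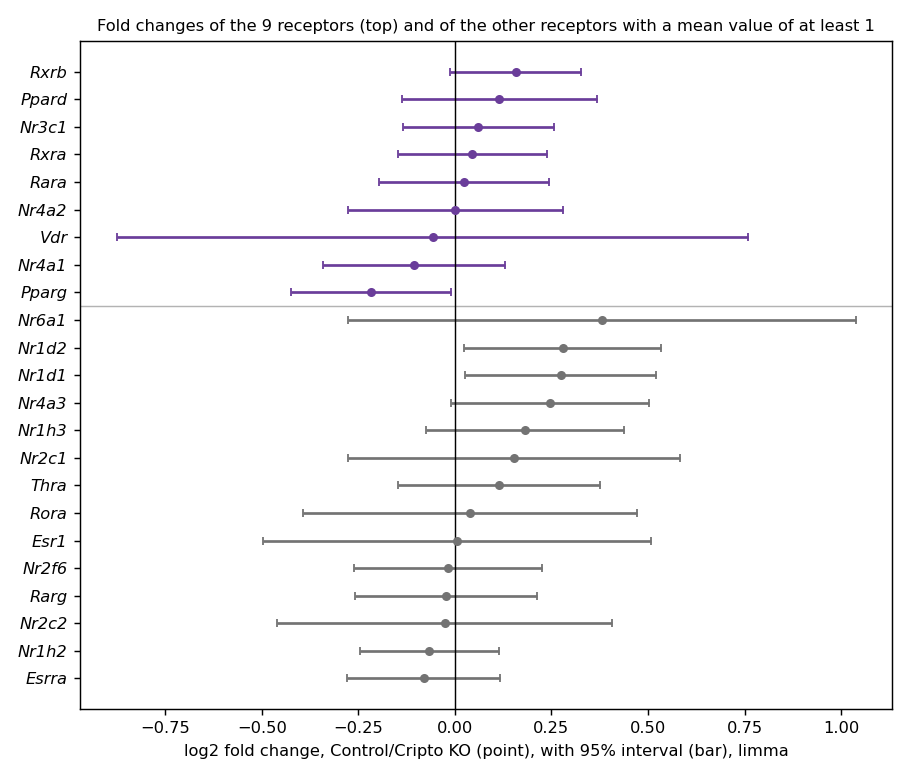
Log2FC (Control/Cripto KO, limma) with its 95% interval for the 9 receptors (purple, above the line) and for the 14 other nuclear receptors with a mean value of at least 1 (gray). Of the 9 receptors only the interval of Pparg, -0.42 to -0.01, leaves out 0, and that of Vdr is the widest.

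For the 3 receptors with a mean value of at least 10 that varied most over the 6 samples, the genes with the closest pattern were looked up among 7730 genes with such a mean, by the root mean square difference of log2 values centred per gene. For Ppard these were Foxp1 (0.023), Maff (0.025) and Fbxo33 (0.028). For Nr4a1 they were Llph-ps2 (0.026), Msto1 (0.029) and Limk1 (0.035), and for Nr4a2 Prune1 (0.039), Zfp64 (0.041) and Pdzd8 (0.041). The median difference to all genes was 0.18 to 0.19. These values only describe the 6 samples. The 3 receptors had an SD of log2 values of 0.16 (Ppard), 0.15 (Nr4a1) and 0.18 (Nr4a2), against a median of 0.13 over these genes.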

How the data were processed

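The authors made libraries from 200 ng of total RNA per sample of sorted MPs, trimmed the reads with Cutadapt 1.7.1, dropped those under 30 bp, estimated expression with RSEM 1.2.20 against GRCm38 transcripts of release 91, and normalized with limma. Their processing notes also name edgeR. The deposited signal is therefore reads plus 0.5 in 1000000 reads of a scaled library. It holds no 0, since a gene without reads still carries the 0.5. With the smallest signal of each sample taken as 0 reads, 100.0% of 78048 values gave whole reads (tolerance 0.01). Reads were rounded to these whole numbers for count tests, and genes with near-identical copies are uncertain.

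Groups were taken from the sample titles. The comparison of Control with Cripto KO used limma 3.58.1 in R 4.3.3 (lmFit, then eBayes with trend) on log2 signal, with nothing added to it. All 13008 genes entered, and Benjamini-Hochberg adjustment ran over all of them. The study calls the samples of a group biological replicates, while the labels do not say which animals they came from. P-values measure the spread between these samples. Alternatives were an added pseudocount of 0.5, a filter at a mean of 1, quantile normalization, voom weights, edgeR 4.0.16 and DESeq2 1.42.0 on reads, the replicate number as a block, and each sample left out. Levels per kilobase used the union of exons of GENCODE M21 (GRCm38). Named were the 9 receptors, genes of the lists with an unadjusted p-value under 0.05 and a mean of at least 1, and the 3 genes of each list with the highest mean. The members, lists and this rule were chosen with earlier results of these data known, and some genes stand in more than 1 list (Fkbp5 and Mertk among them). Each test was also tried on simulated data. Columns of the authors' own comparisons were not used. Python 3.11.15 made the figures.
Some genes that the rule names are not reported here.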

Additional observations from a re-analysis of the deposited data

How the results depend on the processing

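The number of receptors called was 0 in all 13 alternatives, and log2FC kept its sign in all of them for Pparg, Ppard, Rxrb and Nr4a1. Of the 117 values of the 9 receptors under alternatives, 17 changed sign, and of the 519 values of the other 40 named genes, 20 did. None of these was a called value, and the cause was not tested. With quantile normalization log2FC was -0.00418 for Rxra, -0.0159 for Rara, -0.0340 for Nr4a2, 0.0302 for Vdr, -0.0134 for Cyp27a1, -0.0244 for Dhrs3, -0.0193 for Pltp and -0.0339 for Zfp36. With voom weights, edgeR and DESeq2 it was -0.00832, -0.00273 and -0.000992 for Nr4a2 and -0.00532, -0.00697 and -0.00529 for Apoe. With each sample left out in turn, the signs of these genes changed over a range of -0.0106 to 0.118 for Rxra, -0.0487 to 0.132 for Rara, -0.000597 to 0.110 for Nr3c1, -0.132 to 0.0797 for Nr4a2, -0.276 to 0.275 for Vdr, -0.0278 to 0.0637 for Apoe, -0.0332 to 0.0740 for Cyp27a1, -0.00141 to 0.0441 for Dhrs3, -0.0259 to 0.0931 for Dusp1, -0.121 to 0.0322 for Fos, -0.0244 to 0.0714 for Hspa8, -0.126 to 0.0454 for Nfkbia and -0.0195 to 0.0838 for Rdh10.

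Of the 117 genes of the pathway lists, 0 were called by limma (17 had an unadjusted p-value under 0.05) and 3 by DESeq2, namely Lpl, Hsp90aa1 and Dnaja1. Over all genes, 17 were called by limma and 17 by edgeR, 71 by DESeq2, 6 with quantile normalization, 9 with voom weights, and between 5 (without Cripto KO replicate 2) and 31 (without Control replicate 1) with a sample left out. The fit with the replicate number as a block called 2 of all genes and 0 receptors. Samples with the same number did not deviate together (correlations of -0.495, -0.0496 and -0.244 over 7730 genes), so they were not taken as pairs, and a call lost under the block is no sign of a weaker effect. The study elsewhere numbers the Control samples differently from the deposited columns, which also bears on the block. Replicate numbers given here, also where a sample is left out, are those of the columns. Per kilobase of the longest transcript, the levels were 16.7 for Pparg, 13.2 for Ppard, 22.7 for Rxra, 23.0 for Rxrb, 29.1 for Rara, 7.82 for Nr3c1, 297 for Nr4a1 and 28.1 for Nr4a2.

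With 3 samples a group and 19 to 47 reads per sample, the 95% interval of Vdr ran from 0.545-fold to 1.69-fold. No power was computed.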
